A study of Mus musculus with 4 samples.

Results

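The genes described here are 39 members of the p53 response and of the apoptosis machinery, taken by name from the gene column of a table of accessible chromatin regions that names 15091 genes. Of the 39, 3 are p53 itself (Trp53) and its direct regulators Mdm2 and Mdm4, 19 are p53 target genes of arrest, stress and receptor signalling, 9 belong to the Bcl2 family, and 8 are caspases or their regulators. Chromatin accessibility was measured by ATAC-seq, in which the transposase Tn5 cuts and tags open DNA, so that a region's tag count reads how open it is, not how much RNA its gene makes. The cells were neural progenitor cells from the hippocampus of C57BL/6 mice at P0, grown for 7 days as neurospheres, which are floating clusters of dividing progenitors, with FGF-2 and EGF at 20 ng/ml each. The 2 control libraries carried hGFAPCre+ and Fgf13+/y, and the 2 Fgf13cko libraries carried hGFAPCre+ and Fgf13 flox/y. The Cre transgene, driven by the human GFAP promoter, was thus present in both groups, and the controls were littermates with an unfloxed allele of the X-linked gene Fgf13, whose product is an intracellular FGF homologue. Per the labels, the cells of each mouse were split over 2 wells, but whether a group's libraries stem from different mice is not given in the labels.

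In dividing cells p53 is held at a low level by Mdm2, a ubiquitin ligase that marks it for destruction, and by Mdm4, which masks its activation domain. DNA damage or other stress frees p53, which then binds paired decamer motifs near its target genes, among them the cell cycle inhibitor Cdkn1a (p21) and the BH3-only genes Bbc3 (Puma) and Pmaip1 (Noxa). BH3-only proteins set off Bax and Bak1 at the mitochondrial membrane, cytochrome c then assembles Apaf1 and Casp9 into the apoptosome, and the executioner caspases follow. In the newborn brain this route removes surplus progenitors and neurons.

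The 39 genes were assigned 71 of the table's 29121 regions, 34 of them within 1000 bases of a start site (called promoter regions here) and 37 farther away (called distal). A promoter region was listed for 33 members and a distal one for 19. Trp53, Gadd45a, Zmat3 and Casp8 had distal regions only, and Tnfrsf10b and Ei24 had no region. Tags were summed per gene over promoter regions and, separately, over distal regions, and all 33 promoter sums and 19 distal sums passed the filter on low counts. Distances run from a region's centre to the start site. Values below are normalised tag counts, in the order control 1, control 2, Fgf13cko 1 and Fgf13cko 2, and each fold change is Fgf13cko over control on the log2 scale. A difference was called when its p, adjusted by Benjamini-Hochberg over all genes or regions tested with edgeR's quasi-likelihood test, was under 0.05.

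Library depth in nuclear regions ranged from 2.55 to 3.24 M tags, and the share of all tags on mitochondrial regions was 23.4% and 27.0% in the controls against 9.54% and 9.19% in Fgf13cko. Total tags were 24.9 and 26 M in the controls against 16.8 and 13.1 M in Fgf13cko. The peak lists held 38006 and 47148 peaks in the controls against 64954 and 54373 in Fgf13cko. Promoters took 50.9% of the nuclear tags in Fgf13cko 2 and between 56.1% and 58.3% in the other 3 libraries. The promoter sum of Fgf13 held 189, 182, 207 and 162 (log2 fold change -0.01, adjusted p = 0.989), which does not check the genotype, because the position of the loxP sites is not in the labels. Of 10 progenitor markers, 8 had a tested promoter, with summed levels of 1794 and 2056 against 2257 and 2075. Fabp7 (0.81, adjusted p = 0.0237) and Nes (0.80, adjusted p = 0.0492) rose. Hes1 was higher in both Fgf13cko libraries (0.28, adjusted p = 0.314) and Sox9 lower in both (-0.27, adjusted p = 0.356). Sox2, Pax6, Hes5 and Vim overlapped between the groups. Of 7 neuronal markers, 4 were tested, with summed levels of 388 and 411 against 643 and 706. Syt1 (0.95, adjusted p = 0.0161) and Map2 (0.79, adjusted p = 0.0450) rose. Snap25 was higher in both Fgf13cko libraries but did not pass (0.58, adjusted p = 0.113), and Tubb3 overlapped between the groups (-0.03). These 4 marker calls were lost without either control, where the adjusted p lay between 0.456 and 0.638, with scaling factors from all nuclear regions (0.0619 to 0.127), and with library size alone (0.0501 to 0.0977). By the DESeq2 Wald test Nes (adjusted p = 0.274) and Map2 (0.0556) did not pass, and Map2 had 0.48 (adjusted p = 0.199) with promoters up to 3000 bases. Nes also missed the threshold with DESeq2 size factors (0.0505) and with promoters within 500 bases (0.0514), and Map2 with a loess offset (0.0505). Of 8 microglial markers, P2ry12 alone had a promoter region, at 39, 26.4, 11.1 and 23.1, and Flt1 alone of 6 endothelial and pericyte markers. No marker was called among 5 tested astrocyte, 3 oligodendrocyte and 2 meningeal fibroblast markers. Their median log2 fold changes were 0.13, 0.24 and -0.17, with Olig2 at 0.57 (adjusted p = 0.0883). The part of cell make-up, of total depth and of the mitochondrial share in the results below was not tested. In these bulk libraries a change in the share of cells with open DNA at a site and a change per cell cannot be told apart.

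One promoter of the 33 passed the test, that of Bcl2l11, which fell. Over all 11116 promoters tested, 2.43% were called, with 1.95% higher and 0.477% lower in Fgf13cko. Of the 33 members, 13 (39.4%) had an unadjusted p under 0.05, against 19.3% of all promoters. Both Fgf13cko libraries lay below both controls at 18 members (54.5%) and above them at 5 (15.2%), where these shares were 25.2% and 26.1% over all promoters. The 18 include a near-tie at Diablo, with 124.526 in Fgf13cko 1 against 124.86 in control 1. The median log2 fold change was -0.21 over the members and -0.01 over all promoters.

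Bcl2l11 encodes Bim, a BH3-only protein that binds every prosurvival Bcl2 relative and is known for its role in the death of neurons deprived of growth factor. Its promoter sum held 436, 387, 233 and 284. Both Fgf13cko libraries were below both controls, and the sum fell by 0.67 on the log2 scale (SE 0.16, adjusted p = 0.0470). The gene lies on chromosome 2 from 128126038 to 128162547 (GRCm38.p6), and 2 of its 5 regions sit at start sites.

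Each of the 2 start-site regions of Bcl2l11 was also tested alone. The region at chromosome 2, 128125636 to 128126365 (mm10, promoter annotation), around the upstream start site, held 259, 236, 100 and 126. It fell by 1.13 (SE 0.20, adjusted p = 0.0128) and had the smallest p of the 71 regions. The neighbouring region at 128127114 to 128128155, around the downstream start site, held 182 and 170 against 138 and 133 (log2 fold change -0.37, adjusted p = 0.269). The groups did not overlap in either region, and the difference between the 2 regions was not tested. Of the 3 distal regions of the gene, at 39372, 118217 and 150742 bases from the start, none was called (log2 fold changes 0.19, -0.45 and 0.32, adjusted p = 0.785, 0.639 and 0.487).

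The 250 bases before each of the 2 Bcl2l11 start sites are shown to set the region that fell beside its neighbour. They are RefSeq sequence on the plus strand, and capitals mark GGGCGG, the GC box that Sp1 family factors bind, and CCAAT, the CCAAT box, on either strand.
Bcl2l11 upstream start, chr2:128125788-128126037: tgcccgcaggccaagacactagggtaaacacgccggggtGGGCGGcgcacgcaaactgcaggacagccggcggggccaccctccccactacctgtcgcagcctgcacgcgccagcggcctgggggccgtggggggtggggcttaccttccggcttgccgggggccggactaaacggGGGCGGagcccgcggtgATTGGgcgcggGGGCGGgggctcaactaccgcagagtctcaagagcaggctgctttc
Bcl2l11 downstream start, chr2:128127325-128127574: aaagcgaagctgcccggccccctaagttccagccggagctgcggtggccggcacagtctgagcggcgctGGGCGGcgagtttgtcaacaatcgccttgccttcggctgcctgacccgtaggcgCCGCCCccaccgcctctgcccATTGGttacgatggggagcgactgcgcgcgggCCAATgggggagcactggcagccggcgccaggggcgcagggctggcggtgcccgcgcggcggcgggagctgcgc
The upstream stretch held 3 GC boxes and 1 CCAAT box, and the downstream stretch held 2 of each.

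Without either control the call of the Bcl2l11 promoter was lost, with an adjusted p of 0.632 without control 1 and 0.581 without control 2, while its log2 fold change was -0.58 and -0.76. The adjusted p was 0.0869 with scaling factors from all nuclear regions and 0.0581 with promoters limited to 500 bases. The number of member promoters called was 0 without control 1, 0 without control 2, 9 (27.3%) without Fgf13cko 1 and 7 (21.2%) without Fgf13cko 2. Over all genes it was 0, 0, 1143 (10.3%) and 2761 (24.8%), so no promoter of any gene passed with a single control. Member counts by unadjusted p in the fits with a single control are not read here, because the share over all promoters in those fits was not counted.

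**Figure D1:**
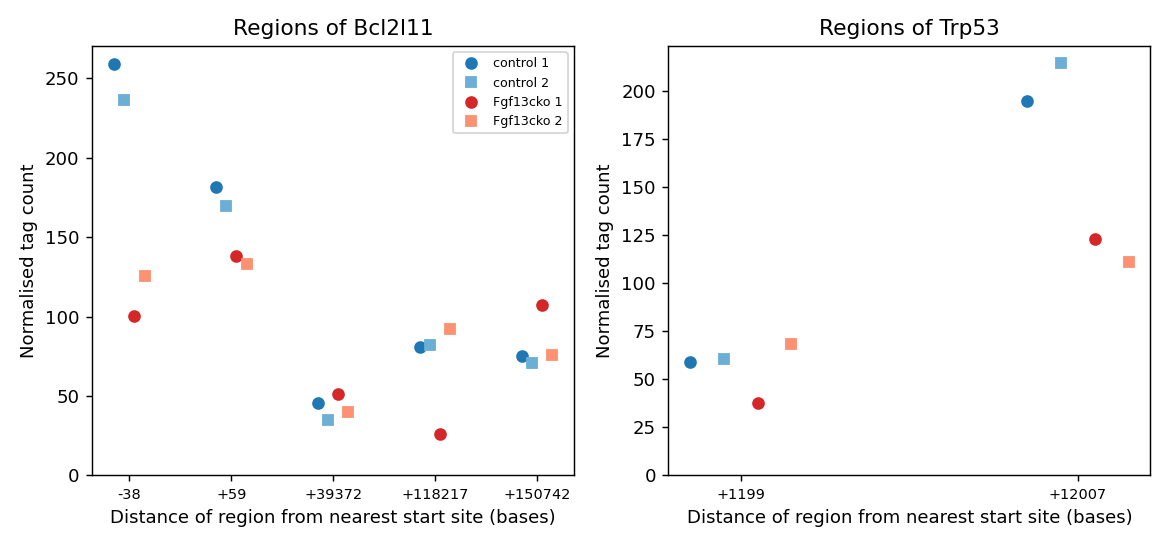
Normalised tag counts of each region assigned to Bcl2l11 and to Trp53, by library, with regions ordered by their distance in bases from the start site. At the Bcl2l11 region 38 bases before the upstream start the Fgf13cko points (100 and 126) lie below the control points (259 and 236), and at the Trp53 region 12007 bases past the start they lie at 123 and 111 against 194 and 215.

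The other 8 promoters of the Bcl2 family did not pass. Of the executioners, Bax held 97.5, 92.5, 76.7 and 79.8 (log2 fold change -0.28, adjusted p = 0.474), and Bak1 held 54.6, 36.4, 72.3 and 48.6 with overlapping groups (0.42, adjusted p = 0.501). Bid, the BH3-only protein that links death receptors to mitochondria, held 56.6, 61.1, 108 and 65.9 (0.56, SE 0.26, adjusted p = 0.263). Its high value came from Fgf13cko 1, while Fgf13cko 2 lay near the controls. The p53-induced BH3-only genes Bbc3 (-0.21) and Pmaip1 (-0.16) were slightly lower in both Fgf13cko libraries, with adjusted p of 0.495 and 0.734. Among the prosurvival genes, Bcl2l1 (Bcl-xL) held 408, 430, 362 and 360 (-0.22, adjusted p = 0.425), Mcl1 had -0.16 (adjusted p = 0.663), and Bcl2 had 0.06 (adjusted p = 0.903). Both Fgf13cko libraries were thus below both controls at 6 of the 9 family members and above them at 1, where these shares were 25.2% and 26.1% over all promoters. The 6 include both prosurvival and death-promoting members.

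None of the 15 p53 target promoters tested passed, by edgeR or by the DESeq2 Wald test. An unadjusted p under 0.05 by edgeR was found at 9 of the 15 (60.0%), beside 19.3% of all promoters. At 9 of the 15 (60.0%, beside 25.2% of all promoters) both Fgf13cko libraries lay below both controls, and at 1, Eda2r, they lay above. The 15 log2 fold changes ran from -0.71 to 0.31 with a median of -0.36, and 12 (80.0%) were negative, as were 50.9% of all promoters. The middle 50% of all promoters lay between -0.24 and 0.24. The 15 leave out the starts of the targets Gadd45a and Zmat3, which lie in regions assigned to neighbouring genes. As single regions these had 0.54, higher in both Fgf13cko libraries, and 0.02, with overlapping groups. A second start of Sesn1, left out likewise, had -0.37 and was lower in both.

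The lowest fold change was that of Phlda3, a PH-domain protein that competes with Akt for the membrane. Its promoter sum, on chromosome 1 in the first exon of the gene, held 119, 128, 81.2 and 69.4 (-0.71, SE 0.19, adjusted p = 0.0766). Trp53inp1, a stress protein that promotes p53 activity and autophagy, held 270, 283, 209 and 173 (-0.53, adjusted p = 0.0946). In both genes the Fgf13cko libraries lay clear of the controls, with Fgf13cko 2 the lower of the pair, and the adjusted p missed the threshold.

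Btg2, an antiproliferative cofactor of mRNA deadenylation, held 269, 268, 207 and 184 at its promoter (-0.46, adjusted p = 0.126). Fas, the death receptor, held 126, 131, 91.2 and 82.1 (-0.56, adjusted p = 0.127). Again neither group reached into the other. Cdkn1a held 271, 267, 222 and 176 (-0.43, adjusted p = 0.168), and Ccng1, the cyclin G1 gene, held 347, 347, 269 and 261 (-0.39, adjusted p = 0.162). Plk2, a polo-like kinase, and Aen, a nuclease that promotes apoptosis, followed with -0.38 and -0.36 (adjusted p = 0.193 and 0.232).

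Eda2r, a receptor of the TNF receptor family, went the other way, with 244, 245, 309 and 297 (0.31, adjusted p = 0.259). The remaining 6 target promoters had unadjusted p between 0.175 and 0.996. They were Sesn1 (-0.28) and Sesn2 (-0.16), the sestrins that restrain mTORC1, Ddit4 (-0.09), which acts on the same kinase, the stress genes Gadd45b (0.01) and Plk3 (0.00), and Perp (-0.23), a desmosomal protein with only 14.5 to 24.8 normalised tags.

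The stretches before the 2 start sites of Cdkn1a are shown because the p53 decamer and the open chromatin were found at different ones. Capitals mark matches to the p53 decamer, the motif that p53 binds in pairs, on RefSeq sequence of the plus strand.
Cdkn1a upstream start, chr17:29090729-29090978: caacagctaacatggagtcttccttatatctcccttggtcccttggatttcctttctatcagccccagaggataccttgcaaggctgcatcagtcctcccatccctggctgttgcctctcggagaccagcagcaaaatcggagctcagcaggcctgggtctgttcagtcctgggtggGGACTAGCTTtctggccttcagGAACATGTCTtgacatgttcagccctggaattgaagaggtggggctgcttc
Cdkn1a downstream start, chr17:29093519-29093768: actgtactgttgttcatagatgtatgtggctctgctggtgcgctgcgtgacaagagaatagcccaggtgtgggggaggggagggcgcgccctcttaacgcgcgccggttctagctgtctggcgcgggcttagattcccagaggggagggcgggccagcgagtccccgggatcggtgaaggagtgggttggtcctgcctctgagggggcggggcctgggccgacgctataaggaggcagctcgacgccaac
The upstream stretch holds GGACTAGCTT at -73 and GAACATGTCT at -51 from its start, and no library had a peak over its window. The downstream stretch holds no match, and its window had a peak in all 4 libraries, with fold enrichments of 3.51, 3.72, 3.60 and 3.71. The measured region of Cdkn1a, at chromosome 17, 29093498 to 29095876, covers the downstream start and the start of intron 1. All values given above for the Cdkn1a promoter therefore come from around the downstream start.

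Over the members, RefSeq promoter windows (GRCm38.p6, 250 bases before to 50 after each start) were at hand for 34 genes, with 45 windows. The p53 decamer, searched on both strands, matched 11 of the 45 windows (24.4%) and 8.36% of the 32851 windows of all genes. By role, it matched 7 of 18 windows of p53 targets, 2 of 4 of p53 and its regulators, 1 of 13 of the Bcl2 family and 1 of 10 of the caspase group. Trp53 holds GGACTTGCCC at -75 and Mdm2 GAACTTGCCT at -186, while Ccng1 holds GGGCAAGCCT at -185 and Gadd45a GGGCTAGCCC at -40. The pair of Aen windows overlap and share 1 match, GGGCTTGTCC. Of the p53 targets with an unadjusted promoter p under 0.05, Cdkn1a, Ccng1 and Aen held a match, Phlda3, Fas, Btg2, Plk2 and Eda2r held none, and Trp53inp1 had no window. A match is a string of letters and not a bound site. The GC box GGGCGG was in 33 of the 45 windows (73.3%) and in 35.7% of all windows, and the CCAAT box in 42.2% and 37.4%. The median GC content was 63.3% against 52.7%.

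**Figure D2:**
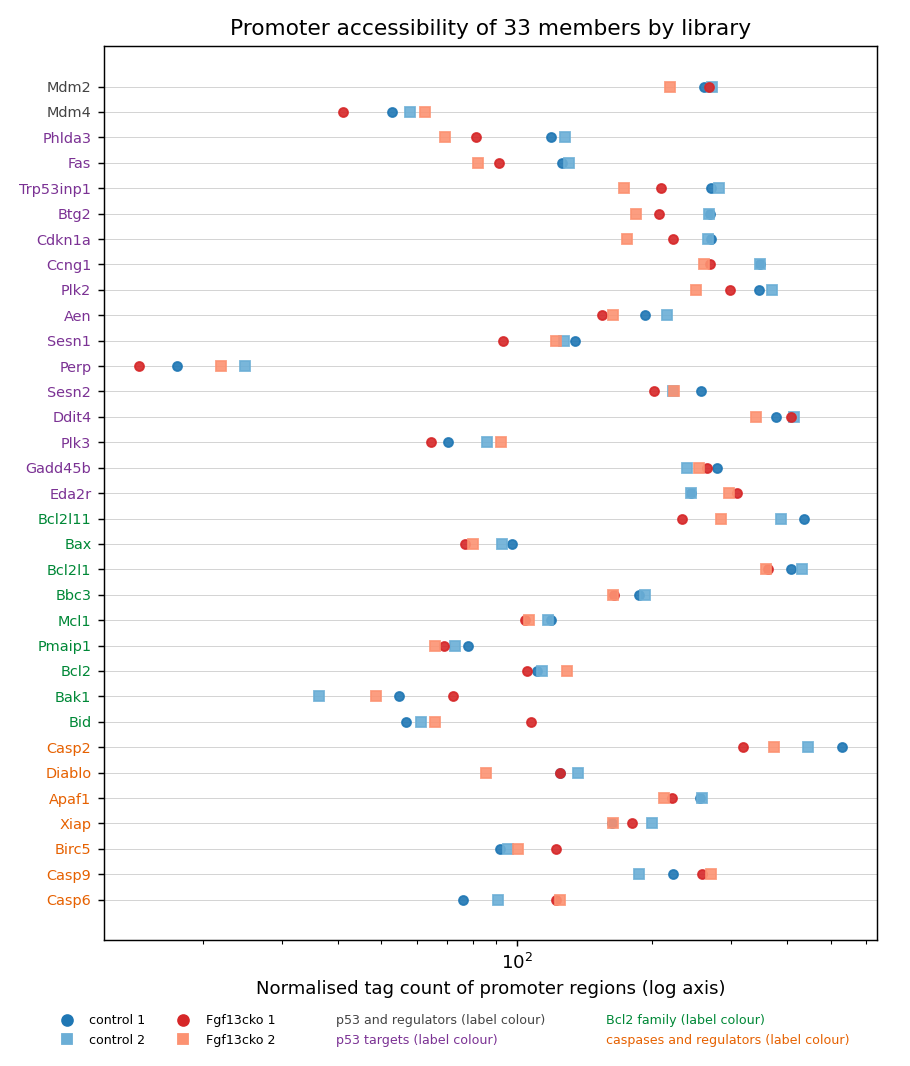
Normalised tag count of the promoter regions (log axis) of 33 members in each of the 4 libraries, with gene labels coloured by role. Most p53 targets have both Fgf13cko points to the left of both control points, Phlda3 with 81.2 and 69.4 against 119 and 128, while Eda2r, Casp6 and Casp9 have them to the right.

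None of the 7 caspase group promoters tested passed, by edgeR or by DESeq2. An unadjusted p under 0.05 was found at 3 (42.9%), in both directions, beside 19.3% of all promoters. Casp2, an initiator caspase that responds to failed division, held 529, 444, 319 and 375 (log2 fold change -0.49, SE 0.15, adjusted p = 0.116). Casp6, an executioner caspase also known for axon degeneration, held 76.1, 90.9, 122 and 125 (0.56, SE 0.19, adjusted p = 0.138). Casp9, the apoptosome's initiator, held 222, 187, 258 and 270 (0.37, adjusted p = 0.214). The groups did not overlap in any of the 3, with Casp2 lower and Casp6 and Casp9 higher in Fgf13cko. Apaf1 and Diablo were also lower in both Fgf13cko libraries, and Birc5 was higher in both. For Diablo this was a near-tie, with 124.526 in Fgf13cko 1 against 124.86 in control 1. In the fit of single regions its groups overlapped. Of the 7, both Fgf13cko libraries thus lay below both controls at 3 (42.9%) and above them at 3 (42.9%). These shares were 25.2% and 26.1% over all promoters.

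Apaf1, the apoptosome scaffold, held 256, 258, 221 and 213 (-0.24, adjusted p = 0.391). Diablo (Smac), which frees caspases from their inhibitors, held 125, 137, 125 and 85.5 (-0.32, adjusted p = 0.436). The inhibitor Xiap had -0.08 (adjusted p = 0.845), and Birc5 (survivin), needed for chromosome segregation as well, had 0.25 (adjusted p = 0.519). Casp8, the initiator caspase of the death receptors, had no promoter region and no peak within 1000 bases of its start in the RefSeq promoter table in any of the 4 peak lists.

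Set side by side, the p53 targets had a median of -0.36 over 15 promoters, the Bcl2 family -0.16 over 9, and the caspase group -0.08 over 7. The starts of Gadd45a and Zmat3, in regions assigned to neighbouring genes, are not among the 15. The Bcl2 family and the caspase group together had -0.16 over 16, with 10 of 16 negative and both Fgf13cko libraries below both controls at 9 (56.2%) and above at 4 (25%), beside 25.2% and 26.1% of all promoters. The 9 include the near-tie at Diablo. Of the p53 targets, 9 of 15 (60.0%) had an unadjusted p under 0.05, and 4 of those 16 (25%) did, beside 19.3% of all promoters. The gap between the medians was not tested, since the genes were grouped with earlier results known. When Bax, Bbc3 and Pmaip1, which p53 also induces, were counted with the targets, the medians were -0.28 over 18 and -0.08 over 13. Scaling by library size alone moved the median of all promoters to -0.13 and the medians of the 2 sets to -0.49 and -0.28.

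**Figure D3:**
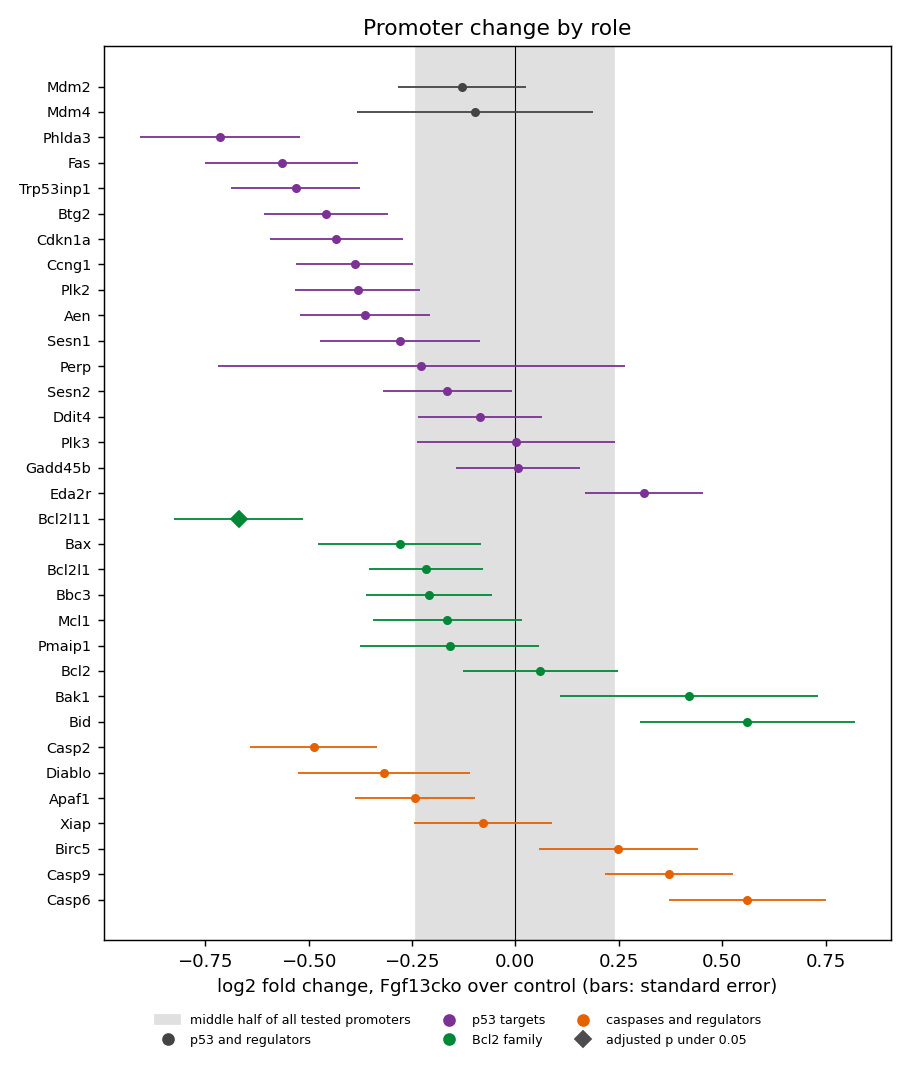
The log2 fold change of each member's promoter sum, Fgf13cko over control, with bars of 1 standard error, ordered within each role. Grey marks -0.24 to 0.24, which holds the middle 50% of all tested promoters. Bcl2l11 alone, drawn as a diamond, had an adjusted p under 0.05.

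Mdm2 and Mdm4 had overlapping groups at their promoters. Mdm2 held 260, 273, 268 and 220 (-0.13, adjusted p = 0.695), and Mdm4 held 52.7, 57.8, 41.1 and 62.4 (-0.10, adjusted p = 0.895). The start site of Trp53 itself lies in a region that the table assigned to Wrap53, the neighbouring gene read in the opposite direction from an overlapping start. That region, on chromosome 11 from 69579007 to 69580467, held 135, 159, 125 and 113 (-0.31, adjusted p = 0.405). Which of the 2 genes such a region serves cannot be told apart here.

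The start of Gadd45a was likewise assigned to a neighbour, E230016M11Rik, with 253, 258, 326 and 417 (0.54, adjusted p = 0.147). Both Fgf13cko libraries lay above both controls there, with an unadjusted p of 0.0247 by edgeR. That of Zmat3, an RNA-binding protein, was assigned to 4930429B21Rik (0.02, adjusted p = 0.966). A second start of Sesn1 was assigned to Cep57l1 (-0.37, adjusted p = 0.360). None of the 4 neighbour regions passed. Start-site peaks could be assessed for 38 members, without Tnfrsf10b, and 36 had a peak within 1000 bases of a start in all 4 lists. The starts of Trp53inp1, Zmat3, Perp and Pmaip1 were taken from gene ends and deposited distances. With 500 bases, and likewise with a -log10 q of at least 2, the number was 35. Trp53 had a peak within 500 bases in control 1 and Fgf13cko 2 only, and Perp reached that q in the controls only. Ei24 codes for a membrane protein of the endoplasmic reticulum. Its start-site peak had fold enrichments of 5.21 in control 1, 6.64 in control 2 and 3.50 in Fgf13cko 2, and none was listed in Fgf13cko 1.

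Among the distal sums, that of Trp53 alone passed, of 19 members tested, and it fell. Over all 8441 distal sums tested, 12.1% were called, with 8.41% higher and 3.73% lower in Fgf13cko. Both Fgf13cko libraries lay below both controls at 7 of the 19 (36.8%) and above at 3 (15.8%). These shares were 27.7% and 31.7% over all distal sums. The 7 include near-ties at Bbc3, with 131.965 in Fgf13cko 2 against 132.445 in control 1, and at Bcl2l11 (-0.06). They also include Eda2r, with 1.5 raw tags in Fgf13cko 1. The median was -0.14 over the members and 0.01 over all genes.

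The distal sum of Trp53, over 2 regions, held 258, 283, 166 and 166. The groups stood well apart, and the sum fell by 0.70 (SE 0.16, adjusted p = 0.0285). The gene spans 69580348 to 69591873 on chromosome 11. The larger of its regions, at 69591960 to 69592773, just past the annotated transcript end, held 194, 215, 123 and 111 and fell by 0.81 (adjusted p = 0.0353). The other, in intron 1 at 69581178 to 69581939, held 59.2, 60.5, 37.6 and 68.1 with overlapping groups (-0.17, adjusted p = 0.798). Without control 1 the adjusted p of the distal sum was 0.156 and without control 2 it was 0.319, and by the DESeq2 Wald test the larger region had 0.0803. Member distal sums called were 0 without control 1, 0 without control 2, 4 (21.1%) without Fgf13cko 1 and 9 (47.4%) without Fgf13cko 2. Over all distal sums, 2.74%, 2.86%, 29.8% and 45.2% were called in these fits.

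The libraries Fgf13cko 1 and Fgf13cko 2 differed from each other at distal regions. At 8 of the 37 distal regions of the members (21.6%), Fgf13cko 1 held less than 50% of the normalised tags of Fgf13cko 2, and at none of the 34 promoter regions did it. Over the whole table the shares were 20.5% of distal and 4.25% of promoter regions, and the reverse was seen at 0.553% and 0.585%. The distal values of several members rest on this pair. Bbc3, with 132, 138, 35.4 and 132, was low in Fgf13cko 1 only, and its log2 fold change of -0.66 had an adjusted p of 0.376. Eda2r, with 23.1, 30.2, 2.36 and 15.5, had -1.51 (adjusted p = 0.219).

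**Figure D4:**
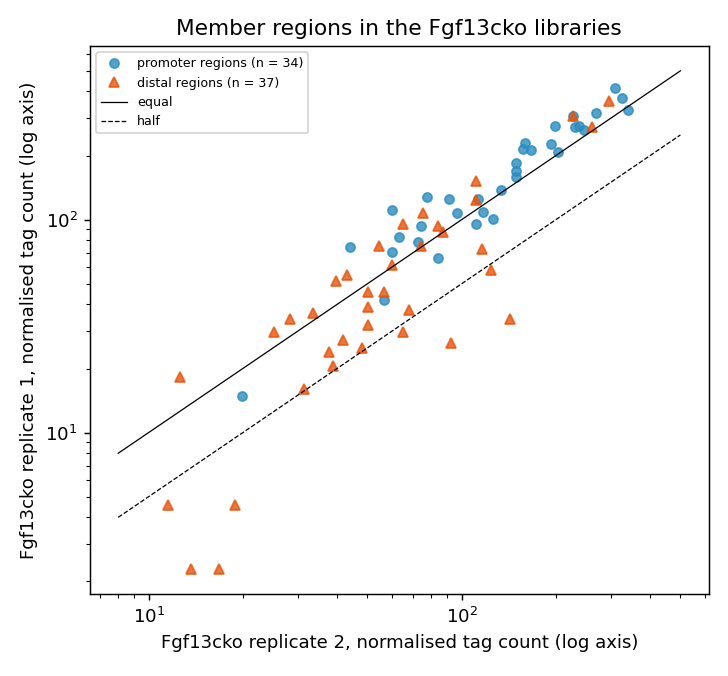
Normalised tags of the members' regions in Fgf13cko 1 against Fgf13cko 2, both on log axes, with promoter and distal regions marked apart and lines at equality and at a ratio of 0.5. Points of 8 distal regions, the region of Bbc3 at 34.2 against 143 among them, lie past the line, and no promoter region does.

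Of the p53 targets, 11 had a distal sum, 9 of them (81.8%) with a negative fold change, beside 48.9% of all distal sums. The 9 include Gadd45a (-0.03, SE 0.19), Ddit4 (-0.06, SE 0.19) and Sesn1 (-0.07, SE 0.17), which lay near 0 with overlapping groups. None of the 11 passed by edgeR or by DESeq2, and 4 (36.4%) had an unadjusted p under 0.05, beside 28.6% of all. Phlda3 held 194, 213, 112 and 158 over 3 regions (-0.58, SE 0.21, adjusted p = 0.109). Ccng1, with 1 region 95795 bases before its start, held 48.2, 53.4, 30.6 and 23.3 (-0.92, adjusted p = 0.115). Gadd45b held 86.3, 96.0, 38.9 and 64.0 (-0.81, adjusted p = 0.115). In these 3 both Fgf13cko libraries lay below both controls. For Phlda3 and Ccng1 the promoter sums stood apart the same way, while the promoter sum of Gadd45b, with 279, 240, 266 and 254, overlapped between the groups. Over all 11 the median was -0.17, and it was 0.03 without Fgf13cko 2.

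Positive distal fold changes were found for Plk2 (0.06, overlapping groups) and Btg2, which held 405, 374, 549 and 468 over 4 distal regions (0.38, adjusted p = 0.130). Its regions pointed both ways. The intergenic regions past the gene, 15790 and 17968 bases from the start, held 211, 207, 361 and 296 (0.65, adjusted p = 0.0788) and 56.3, 45.0, 73.0 and 116 (0.91, adjusted p = 0.0973). The region 13981 bases before the start held 96.7, 84.8, 61.6 and 59.8 (-0.58, adjusted p = 0.166), lower in both Fgf13cko libraries like the promoter. The sum over the gene's distal regions therefore mixes signs, and none of these regions passed.

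In the Bcl2 family 5 members had a distal sum and none passed by edgeR or by DESeq2. An unadjusted p under 0.05 was found for 1 (20%), beside 28.6% of all distal sums. That was Bcl2l1, whose region in intron 2, 8198 bases from a start, gave 44.1, 40.9, 77.8 and 68.9 (0.78, SE 0.28, adjusted p = 0.102), higher in both Fgf13cko libraries while the promoter of the same gene was lower in both. Bcl2 held 62.2, 44.5, 68.4 and 85.4 over 2 intronic regions (0.53, adjusted p = 0.271). Mcl1 held 114, 116, 177 and 111 (0.31, adjusted p = 0.444), high in Fgf13cko 1 only, and Bcl2l11 held 205, 194, 191 and 192 (-0.06, adjusted p = 0.850). Both Fgf13cko libraries lay above both controls for Bcl2l1 and Bcl2 (40%), and below them for Bbc3 and Bcl2l11 (40%). The shares over all distal sums were 31.7% and 27.7%. For Bbc3, Fgf13cko 2 (131.965) lay just under control 1 (132.445). In the caspase group Apaf1 (-0.85, adjusted p = 0.510, 4.72 to 18.1 tags) and Casp8 (-0.14, adjusted p = 0.838) overlapped between groups.

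Tested one by one, 2 of the 71 regions passed and both fell, the upstream start-site region of Bcl2l11 and the region past the end of Trp53. Over the 28808 regions tested 7.52% were called, and 1.79% fell. Next by p were the promoter region of Phlda3 (-0.80, adjusted p = 0.0640) and its region 6167 bases before the start, with 89.8, 95.1, 45.6 and 56.6 (-0.85, adjusted p = 0.0662). Phlda3 thus had 2 regions with groups well apart, neither past the threshold. The number of member regions called was 0 without control 1, 0 without control 2, 21 (29.6%) without Fgf13cko 1 and 20 (28.2%) without Fgf13cko 2. Over all regions, 1.40%, 0.475%, 24.3% and 35.1% were called in these 4 fits.

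Of 62 further genes of the same pathways, 43 had a tested promoter and none passed by edgeR or by DESeq2. By edgeR 10 of the 43 had an unadjusted p under 0.05, beside 19.3% of all promoters. By DESeq2 5 of the 43 did, for which the share over all promoters was not counted. Without Fgf13cko 1, 2 of them (4.65%) passed, and without Fgf13cko 2, 11 (25.6%) did, beside 10.3% and 24.8% of all promoters. The median log2 fold change of the 43 was -0.01, and 22 of them were negative, beside 50.9% of all promoters. Among 23 tested distal sums, 2 rose and 1 fell, which is 13.0% beside 12.1% of all distal sums. Ripk1, the kinase that steers TNF receptor signalling to survival or death, held 28.1, 40.0, 112 and 117 and rose by 1.74 (SE 0.28, adjusted p = 0.00952). Sesn3, a sestrin under FoxO control, held 371, 324, 589 and 491 and rose by 0.64 (adjusted p = 0.0357). Traf2, an adaptor of TNF receptors, held 64.2, 64.0, 18.9 and 33 and fell by 1.29 (adjusted p = 0.0493). All 3 had groups that did not overlap. Without control 1 none of the 3 passed (adjusted p = 0.0508, 0.238 and 0.235), without control 2 Ripk1 alone did, and by the DESeq2 Wald test Traf2 did not (adjusted p = 0.0837). Sesn3 had 0.32 (adjusted p = 0.423) when distal regions were limited to 100 kb, and its adjusted p was 0.0510 with DESeq2 size factors. Traf2 also missed the threshold with library size alone (adjusted p = 0.110) and with scaling factors from all nuclear regions (0.0855). The sums of Ripk1 and Traf2 each came from 1 distal region. Without Fgf13cko 1, and likewise without Fgf13cko 2, 8 of the 23 distal sums (34.8%) passed, beside 29.8% and 45.2% of all.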

How the data were processed

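ATAC-seq libraries of 2 control and 2 Fgf13cko neurosphere cultures were analysed. The replicates are separate libraries by their titles, so the p-values rest on the spread between libraries, part of which may be technical. Bowtie2, Picard, MACS2, HOMER and DESeq2 and the build mm10 appear in the submitters' processing notes, without roles. Tool versions, read shifting and duplicate handling were not given in the sources. Per the file headers, the deposited table holds estimated counts, raw tags per merged peak without normalisation. All are multiples of 0.5, and they were rounded to whole numbers for the tests. In the deposited peak lists, the fold enrichment (a ratio), -log10 p, -log10 q and score of a peak are the authors' own values and only describe peaks within a list. A peak belonged to a start site when it overlapped 1000 bases on either side by at least 1 base.

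Tags were summed per gene over regions within 1000 bases of the start site given in the table, and over its other regions. These sums and the single regions were fitted across the whole table with edgeR 4.0.16 in R 4.3.3 (limma 3.58.1; TMM, filterByExpr, robust quasi-likelihood fit, two-sided, Benjamini-Hochberg). Left out were 7 regions with no gene name, which held at most 0.0213% of a library's region tags, and a pair of mitochondrial regions, which held 31.5% to 68.4%. Normalised counts are tags divided by the relative effective library size of that fit, so sums and single regions differ slightly in scale. DESeq2 1.42.0 was an alternative. The code was tested on simulated counts. Members, role groups and further genes were chosen with earlier results of these data known. Every member that passed, and in each role the 4 with the smallest p among promoter and among distal sums, are given with values. Gene positions and promoter sequences are from RefSeq on GRCm38.p6, which matched all 39 members by symbol for positions and 34 for sequences.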

Additional observations from a re-analysis of the deposited data

How the results depend on the processing

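Leaving out 1 library each moved the number of member promoters called from 1 to between 0 and 9, of distal sums from 1 to between 0 and 9, and of regions from 2 to between 0 and 21. It was 0 in all 3 without either control, where 1 control library stands alone and is assumed to vary like the pair. The same step moved the median promoter log2 fold change of p53 targets between -0.42 and -0.32, and that of the Bcl2 family with caspases between -0.18 and -0.11. For distal sums of p53 targets it moved between -0.28 and 0.025. With scaling factors from all nuclear regions the calls were 0 promoters and 2 distal sums, and the 2 promoter medians were -0.46 and -0.25. With library size alone the medians were -0.49 and -0.28. A loess offset gave 10 regions called, -0.19 for promoters of the Bcl2 family with caspases and -0.33 for distal sums of p53 targets. Promoters within 500 bases gave 0 calls, and the DESeq2 Wald test gave 1 region. Distal regions within 100 kb gave medians of -0.47 for p53 targets and 0.21 for the Bcl2 family with caspases. Counting Bax, Bbc3 and Pmaip1 with the targets gave -0.28 and -0.079 for promoters, and -0.31 and 0.13 for distal sums. Except where fewer libraries or regions entered, the cause of these shifts was not tested. The deviations of same-numbered libraries of the 2 groups correlated weakly and negatively (r = -0.16 for promoters, -0.23 for distal sums and -0.24 for regions). Control 1 thus tended to deviate like Fgf13cko 2 rather than like Fgf13cko 1. Whether libraries of the 2 groups are paired was not tested. With a replicate block, 1 promoter, 1 distal sum and 6 regions were called. A crossed replicate block, chosen after seeing the data, gave 4, 4 and 7. Over all promoters, 270 were called in the main fit, 376 with the replicate block and 823 with the crossed block. The loess offset gave 395 over all promoters, and scaling factors from all nuclear regions gave 124. For distal sums and regions, the calls over all features in these fits are not given here. No reading is drawn from the member counts there. The 37 single sums or regions with an unadjusted p under 0.05 were also refitted. Of their 463 values 390 kept their side of the threshold, 62 passed newly and 11 no longer passed. None changed direction, which says little of stability because they were chosen for a clear difference. Low counts limit several distal regions, where Fgf13cko 1 held as few as 1.5 tags.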

Other observations

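For Fgf13cko 1, some distal regions held few tags in the deposited table although that library's own peak list has a peak there. This was so at all 8 regions of members where Fgf13cko 1 held less than 50% of the normalised tags of Fgf13cko 2, and each of them had a peak in the list of every library. At the region 9783 bases before Bbc3 the raw tags were 132, 155, 30.5 and 136 in control 1, control 2, Fgf13cko 1 and Fgf13cko 2. At the region 118217 bases from the Bcl2l11 start they were 82.5, 95, 23 and 87.5, and at the region 54368 bases before Eda2r they were 23, 34.5, 1.5 and 15.5. These 3 were picked after their values were seen. Over the whole table, 4046 regions (14.0%) held less than 50% of the normalised tags of Fgf13cko 2 in Fgf13cko 1. Their median width was 486 bases, against 888 for the others, and their median tags were 11 in Fgf13cko 1 and 39 in Fgf13cko 2. The cause was not tested.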
